A study of Mus musculus with 7 samples.

Results

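Gamma-delta T cells of the mouse lung were taken as the barcodes that carried RNA of the CD3 complex together with RNA of the gamma-delta T cell receptor. A barcode was kept with 600 UMIs or more (unique molecular identifiers, each counting 1 captured RNA molecule), 300 genes or more and no more than 20% mitochondrial UMIs. A member then had at least 2 UMIs of Cd3d, Cd3e and Cd3g together, at least 1 UMI of Trdc, and at least 3 UMIs of Trdc, Tcrg-C1 and Cd163l1 together. It had no UMI of Ncr1, Klrb1c, Cd8b1 or Cd4, at most 1 UMI of Cd79a and Ms4a1, and fewer than 20 UMIs of S100a8 and S100a9. The rule found 833 cells among 50955 kept barcodes, of which 14512 had at least 2 UMIs of the CD3 genes. The Smad4fl/fl libraries 1 to 3 held 27, 59 and 89 members, 175 in all, and the Smad4iko libraries 1 to 4 held 141, 82, 195 and 240, 658 in all.

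The study profiled RNA of single cells from dissociated lung by their 3' ends, in 1 library per mouse, 3 mice being Smad4fl/fl and 4 being Smad4iko. Smad4fl/fl mice carry floxed alleles of Smad4, and Smad4iko mice carry them with Rosa26-creERT2, a Cre recombinase that tamoxifen activates in nearly all cell types, so that the deletion is not limited to T cells. Tamoxifen was injected into both groups, 5 times at 75 mg/kg from postnatal day 21 to day 26, the controls being Cre-negative littermates, and peripheral lung was taken at 8 weeks of age. The libraries are separate mice by their labels, and the p-values below measure the spread between them.

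Gamma-delta T cells recognise antigen through a receptor of a delta and a gamma chain and leave the thymus as subsets that are already set for their effector cytokine. One subset makes IL-17 under transcription factors such as MAF and SOX13, responds to IL-23 and IL-1, and settles in lung, skin and other barrier tissues early in life. Another keeps CD27, cytotoxic genes and the capacity for interferon-γ. SMAD4 is the shared partner of the receptor-activated SMAD proteins in TGF-β and BMP signalling, and TGF-β acts on T cell development, residency and proliferation.

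The libraries held 46449235 to 66557262 UMIs, and the members' median was 4875 to 7398 UMIs in Smad4fl/fl and 6023.5 to 7749 in Smad4iko. Summed over its members, a library gave 177600 to 1623012 UMIs, so Smad4fl/fl 1, with 27 members, was the least precise. Sex is not labelled. Xist and Ddx3y RNA was of the female pattern in Smad4fl/fl 3 and Smad4iko 3 and of the male pattern elsewhere. Smad4iko 3 and 4 stood apart in other T cells as well: Ifngr1 was at 272 and 303 CPM in their CD4 T cells against 697 to 863 CPM in the other 5 libraries. CPM here is the count of a gene's UMIs per 1000000 UMIs of the named cells of a library. The genotype fit was therefore repeated with Smad4iko 1 and 2 alone. Any pair of libraries shared 10 to 23 kept barcodes by sequence, and 1 member barcode occurred in more than 1 library.

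The genes of the rule describe the members, and no test of them is used. Trdc, the delta chain constant gene, stood at 1988, 1375 and 1679 CPM in Smad4fl/fl 1 to 3 and at 1420.5, 1767, 1973 and 1848 CPM in Smad4iko 1 to 4. Its UMIs in B cells, defined by at least 3 UMIs of Cd79a and Ms4a1 and none of the CD3 genes, bound the share set by free RNA: 0.116 to 1.00% of B cells had a Trdc UMI. The sum of Trdc, Tcrg-C1 and Cd163l1 had a median of 7 to 17 UMIs per member in Smad4fl/fl and 16 to 21.5 in Smad4iko. Just inside the threshold, at a sum of 3 UMIs, lay 0, 9, 1, 4, 1, 2 and 5 members of the 7 libraries in order, and just outside it, at 2 UMIs, lay 1, 10, 8, 8, 0, 8 and 8 barcodes. Smad4fl/fl 2 had the lowest median sum and the most members at the threshold. Beta chain RNA did not separate the classes, since 92.7 to 99.3% of members had a Trbc2 UMI. Trac, the alpha chain constant gene, had a UMI in 18.6 to 32.6% of members in Smad4fl/fl and 35.4 to 43.3% in Smad4iko. In CD4 T cells the share was 82.6 to 93.1%. With each member thinned to 1000 UMIs, Trac had a UMI in 2.2 to 5.1% in Smad4fl/fl and 7.1 to 12.2% in Smad4iko. The Trac share of members was thus higher in Smad4iko without overlap either way, and the source of this difference was not tested.

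Of the markers of other cells, 5 of 7 alpha-beta T cell genes had UMIs in members, with Cd4 and Cd8b1 at 0 by the rule, and their summed level was 2325 to 3195 CPM in Smad4fl/fl and 1888 to 2310 CPM in Smad4iko. Natural killer cell genes had UMIs for 4 of 6, with Ncr1 and Klrb1c at 0 by the rule, at 84.7 to 321 CPM and 14.1 to 152 CPM. The invariant alpha chain genes Trav11 and Trav1 of NKT and MAIT cells were at 0, in members and in B cells alike. The other 2 of 4 NKT and MAIT markers, Zbtb16 and Cd1d1, had UMIs in members. Their sum was 74.6 to 186 CPM in Smad4fl/fl and 84.1 to 122 CPM in Smad4iko. In CD4 T cells all 4 had UMIs, at 29.6 to 52.6 CPM and 27.3 to 36.6 CPM. RNA of 3 non-lymphoid classes moved with genotype in the members. All 7 monocyte and macrophage genes summed to 59.7 to 798 CPM in Smad4fl/fl and 882 to 1454 CPM in Smad4iko. All 5 neutrophil genes summed to 0 to 77.5 CPM and 123 to 386 CPM, and all 3 erythroid genes to 0 to 8.95 CPM and 12.2 to 5643 CPM. The part of this RNA in the genotype results below was not tested. The rule itself removes barcodes with 20 or more UMIs of S100a8 and S100a9, neutrophil genes whose background also rose: S100a8 had a UMI in 2.1 to 12.1% of B cells in Smad4fl/fl and in 19.8 to 59.2% in Smad4iko.

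Compared with the alpha-beta T cells of the same libraries, the members carried more RNA of the gamma and delta chains and of the type 17 list, and less Trac and Ccr7 RNA. CD4 T cells were the 4414 barcodes with CD3 and Cd4 RNA and no Cd8a, Cd8b1, Trdc or Cd163l1 UMI, and CD8 T cells the 3230 with CD3 and Cd8b1 RNA and no Cd4, Trdc or Cd163l1 UMI. UMIs were summed per library and class and compared within libraries by edgeR's quasi-likelihood test, with Benjamini-Hochberg adjustment over all genes tested and calls at an adjusted p under 0.05. Against CD4 T cells 2737 of 9163 genes outside the rule were called (29.9%), 1473 higher (16.1%) and 1264 lower (13.8%). Against CD8 T cells 3008 of 8688 were called (34.6%), 1652 higher (19%) and 1356 lower (15.6%). Those higher than both were 1239 of 8629 (14.4%), and those lower than both 894 (10.4%). Every gene named below as higher or lower than a class differed the same way in 7 of 7 libraries, except Nkg7, Smad7 and Icos.

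Of the receptor genes outside the rule, 9 of 12 tested were higher than in CD4 T cells and 9 of 12 higher than in CD8 T cells, with 2 lower in each comparison. The rule took members by Trdc and Tcrg-C1 RNA, and the CD4 and CD8 T cells had no Trdc UMI. Higher RNA of other gamma and delta chain genes is therefore a description of the selected cells and not separate support for the rule. Trdv4, which encodes a delta chain variable region, ranged from 95.5 to 437 CPM (median 171) in the 7 libraries, was at 0 in every CD4 T cell sum and reached 0.328 CPM in CD8 T cells. Trgv2 stood at 78.8 to 205 CPM (median 116) and Trgv6, the gamma variable gene of the fetal-derived subset, at 11.3 to 102 CPM (median 44.5), against means of 1.13 and 0.161 CPM in CD4 T cells. Tcrg-C2 and Tcrg-C4 had means of 296 and 193 CPM against 3.11 and 3.38 CPM in CD4 T cells. The gamma constant genes are near-identical copies, so the split of UMIs among them, Tcrg-C1 of the rule included, is uncertain. Trac went the other way, with a log2 difference of -2.65 ± 0.12 (SE) from CD4 T cells (edgeR, adjusted p = 9.17e-09). Its mean was 80.9 CPM in members and 479 CPM in CD4 T cells.

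All 24 tested genes of the type 17 list were higher than in CD4 T cells and all 24 higher than in CD8 T cells, with median log2 differences of 4.47 and 5.43 against -0.02 and -0.01 over all genes tested. The list holds the regulators, receptors and products of IL-17-producing cells. Among the regulators, Maf, a transcription factor of the IL-17 programme, ranged from 248 to 622 CPM (median 428) and was 1.68 ± 0.12 (log2) above CD4 T cells (edgeR, adjusted p = 3.30e-07). Zbtb16, which encodes the innate-like factor PLZF, stood at 56.7 to 180.2 CPM (median 102) against a mean of 12.6 CPM. Blk, a SRC-family kinase needed by IL-17-producing gamma-delta T cells, showed one of the widest separations from the alpha-beta classes. It stood at 95.7 to 350.0 CPM (median 277) in members against 0 to 1.47 CPM in CD4 and 0 to 2.44 CPM in CD8 T cells. B cells carried Blk as well, at a mean of 114 CPM.

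Receptors followed the regulators. Il23r, the IL-23 receptor, ranged from 17.9 to 105 CPM (median 60.7) and did not exceed 1.08 CPM in CD4 T cells. Il1r1, the IL-1 receptor, stood at 38.8 to 121 CPM (median 76.2) with a mean of 2.39 CPM in CD4 T cells. The chemokine receptor gene Cxcr6 was 4.45 ± 0.23 (log2) above CD4 and 5.04 ± 0.16 above CD8 T cells (edgeR, adjusted p = 1.87e-08 and 2.44e-10). Ltb4r1, the leukotriene B4 receptor, and Il17re, a chain of the IL-17C receptor, had means of 145 and 57.2 CPM against 6.29 and 1.76 CPM. The effector gene Il17a varied most between libraries, from 22.5 to 463 CPM (median 85.1), and was still above the 0 to 19.2 CPM of CD4 T cells, with a log2 difference of 5.80 ± 0.46 (adjusted p = 6.94e-07). Il17f ranged from 38.8 to 224 CPM (median 100.4) against 0 to 14.7 CPM. Il17a had a UMI in 6.8 to 31.5% of members in Smad4fl/fl and in 20.7 to 45.6% in Smad4iko, against at most 0.24% of B cells in any library, and after each member was thinned to 1000 UMIs in 0 to 12.4% and 4.9 to 18.8%.

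**Figure D1:**
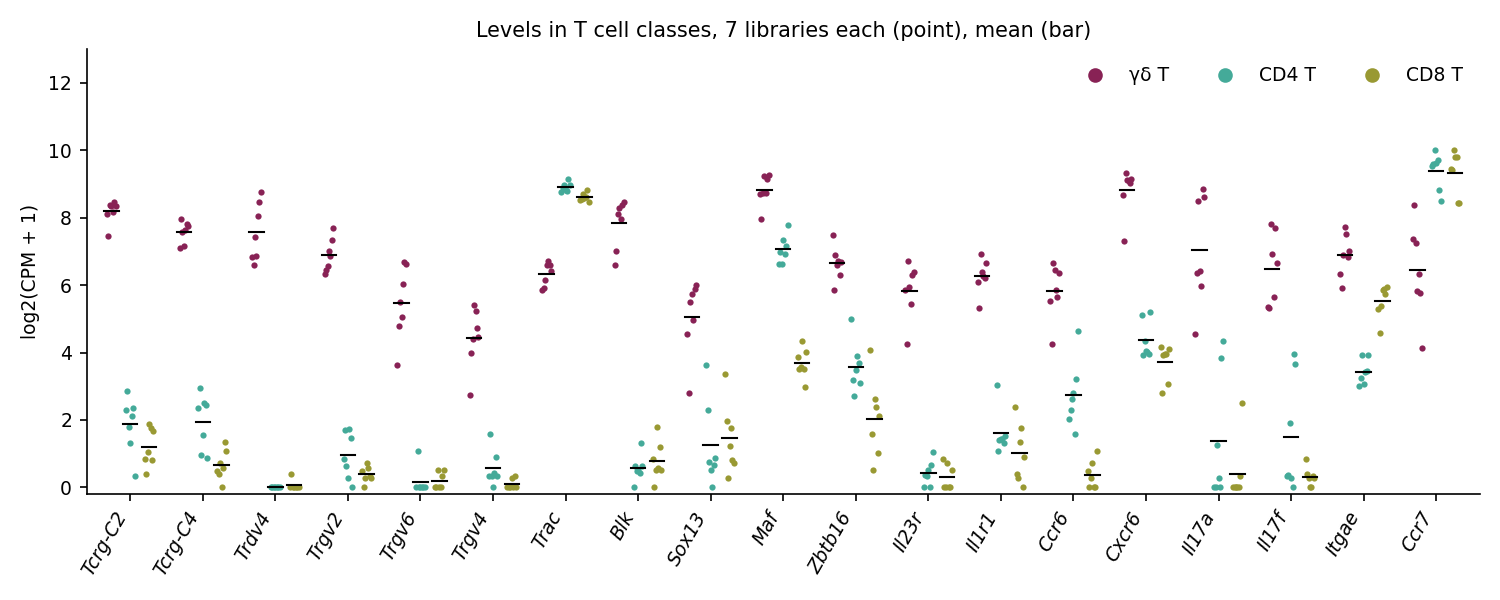
Level of 19 genes, as log2(CPM + 1) on the vertical axis, in gamma-delta T, CD4 T and CD8 T cells of the 7 libraries (points), with the mean as a bar. Gamma-delta receptor and type 17 genes of the members lie above both alpha-beta classes, and Trac and Ccr7 lie below them.

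Other genes higher than in both classes had no place in the list. By the ranking used here they included Cryba4 (mean 188 CPM in members), the metalloprotease gene Mmp25 (172 CPM) and Acsbg1 (an acyl-CoA synthetase, 205 CPM). Each had a mean under 7 CPM in CD4 and CD8 T cells. Of the type 17 list, the ranking also named Serpinb1a, a protease inhibitor, with a mean of 384 CPM against 15 and 5.66 CPM, and 136 CPM in B cells. Kcnk1, a potassium channel of that list, stood at 97.1 against 0.135 and 0.381 CPM. Itgae, the αE integrin of tissue-resident lymphocytes, ranged from 59.7 to 209 CPM (median 118) and was 3.51 ± 0.22 (log2) above CD4 and 1.21 ± 0.14 above CD8 T cells (edgeR, adjusted p = 1.06e-07 and 2.07e-05).

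The 15 genes ranked first among the lower ones included Ccr7, the lymph node homing receptor, at a mean of 122 CPM against 711 and 698 CPM, a log2 difference of -3.07 ± 0.29 and -3.11 ± 0.33. Rgs10, a regulator of G protein signalling, stood at 41.1 against 335 and 317 CPM. Dapl1 and Slfn1 had means of 10.9 and 13.8 CPM in members and of 74 and 125 CPM in CD4 T cells. Cd6, a co-receptor of the alpha-beta receptor, stood at 12.7 CPM against 86.2 CPM in CD4 T cells. Type 1 genes gave no single direction: 9 of 15 tested were higher and 3 lower than in CD4 T cells, and 4 of 16 higher and 5 lower than in CD8 T cells. Of all genes 16.1% were higher and 13.8% lower than in CD4 T cells, and 19% and 15.6% than in CD8 T cells. Nkg7, a cytotoxic granule gene, lay between them, at 149 CPM against 25.4 CPM in CD4 and 302 CPM in CD8 T cells. In the SMAD pathway list 5 of 24 genes were higher and 10 lower than in CD4 T cells, against 16.1% and 13.8% of all genes. Smad3, a receptor-activated SMAD, was 1.67 ± 0.18 (log2) higher, and the inhibitor Smad7 was at -0.54 ± 0.15 and lower in 5 of 7 libraries (edgeR, adjusted p = 9.12e-06 and 0.0122).

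Within the members, cells differed in the balance of type 17 and type 1 RNA. A member was put on the type 17 side where it had more UMIs of the type 17 list than of the type 1 list, and on the type 1 side where it had fewer. Of the 833 members, 680 fell on the type 17 side, 142 on the type 1 side and 11 had equal sums. The sides are ranges of a score and not separate cell types, and the genes of both lists describe them only. An Il17a UMI was present in 283 cells of the type 17 side (41.6%) and in 1 of the type 1 side (0.7%).

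The sides differed in their receptor genes, which the score did not use. Trdv4 had a UMI in 55.4% of type 17 side cells and 2.8% of type 1 side cells, and Trgv6 in 36.3% and 1.4%. Both together were seen in 226 cells of the type 17 side and 2 of the type 1 side. Trgv4, the variable gene of other IL-17-producing cells, had a UMI in 16.9% and 8.5%. Median depth was 6688 and 5716.5 UMIs. Both genotypes showed it: Trdv4 had a UMI in 51.5% of its Smad4fl/fl cells and in 56.2% of its Smad4iko cells.

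Summed per library and side, and given as a description, 472 of 3246 genes with a mean of at least 50 CPM were higher on the type 17 side in 7 of 7 libraries, and 261 on the type 1 side. The calcium-binding proteins S100a4 and S100a6 had means of 4795 and 6048 CPM on the type 17 side and 111 and 266 CPM on the type 1 side. Ccr2, a receptor of inflammatory recruitment, stood at 516 against 33.6 CPM and Tnfrsf25, the receptor of TL1A, at 151 against 9.3 CPM. Cryba4 and Mmp25, at 246 and 222 CPM on the type 17 side, had no UMI on the type 1 side. Higher on the type 1 side were Ccr7 at 353 against 44.9 CPM, the costimulatory receptor Cd28 at 232 against 29.1 CPM and the kinase Lck at 189 against 14.1 CPM.

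Gamma-delta T cells had a higher share of the T cells in every Smad4iko lung than in any Smad4fl/fl lung, a difference that missed the threshold of the exact permutation test. They made up 1.89, 2.47 and 3.74% of CD3 barcodes in Smad4fl/fl 1 to 3 and 6.82, 5.38, 8.47 and 9.92% in Smad4iko 1 to 4. The groups did not overlap, and each exact 95% interval of a Smad4iko library, from 4.30% at the lowest bound, lay above those of Smad4fl/fl 1 and 2, which ended at 2.74 and 3.17%. That of Smad4fl/fl 3 reached 4.58%. The means were 2.70 ± 0.944% (SD, n = 3) and 7.65 ± 1.97% (n = 4), a ratio of 2.84 (2-sided exact permutation test, p = 0.0571). The smallest p that 3 against 4 libraries allow is 0.0286. With Smad4iko 1 and 2 alone the difference was 3.4 percentage points in place of 4.95 (exact permutation p = 0.1, the smallest possible).

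As a share of all kept barcodes the members were 0.335, 0.820 and 1.24% in Smad4fl/fl and 2.16, 1.22, 2.32 and 3.52% in Smad4iko, where Smad4iko 2 overlapped Smad4fl/fl 3 (exact permutation p = 0.0857). The CD3 barcodes themselves were 17.7 to 33.3% and 22.6 to 35.5% of kept barcodes. All intervals cover counting error only, and dissociation sets which cells enter a share.

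The difference lay mostly on the type 17 side. After thinning each member to 1000 UMIs, 51.9, 28.8 and 71.9% of members fell on that side in Smad4fl/fl and 85.8, 78.0, 79.0 and 86.7% in Smad4iko, again without overlap. The means were 50.9 ± 21.6% and 82.4 ± 4.49% (exact permutation p = 0.0286, the smallest possible; 0.0857 adjusted over the 3 shares tested). As a share of CD3 barcodes, type 17 side cells were 0.981, 0.710 and 2.69% in Smad4fl/fl and 5.85, 4.20, 6.69 and 8.60% in Smad4iko, a ratio of means of 4.34. Type 1 side cells were 0.771, 1.38 and 0.840% against 0.484, 0.985, 1.17 and 0.868%, a ratio of 0.881 with overlapping groups. The share on the type 17 side passed the threshold only before adjustment over the 3 shares. Unadjusted, it missed the threshold when members had to have no Trac UMI and at most 3 UMIs of Trbc1 and Trbc2 (exact permutation p = 0.171). That limit left 5 to 30 cells per library. It also missed it when all barcodes were thinned to 1500 UMIs before the rule was applied (exact permutation p = 0.0571). With Smad4iko 1 and 2 alone the difference was 31.1 percentage points (exact permutation p = 0.2, where the smallest possible is 0.1).

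**Figure D2:**
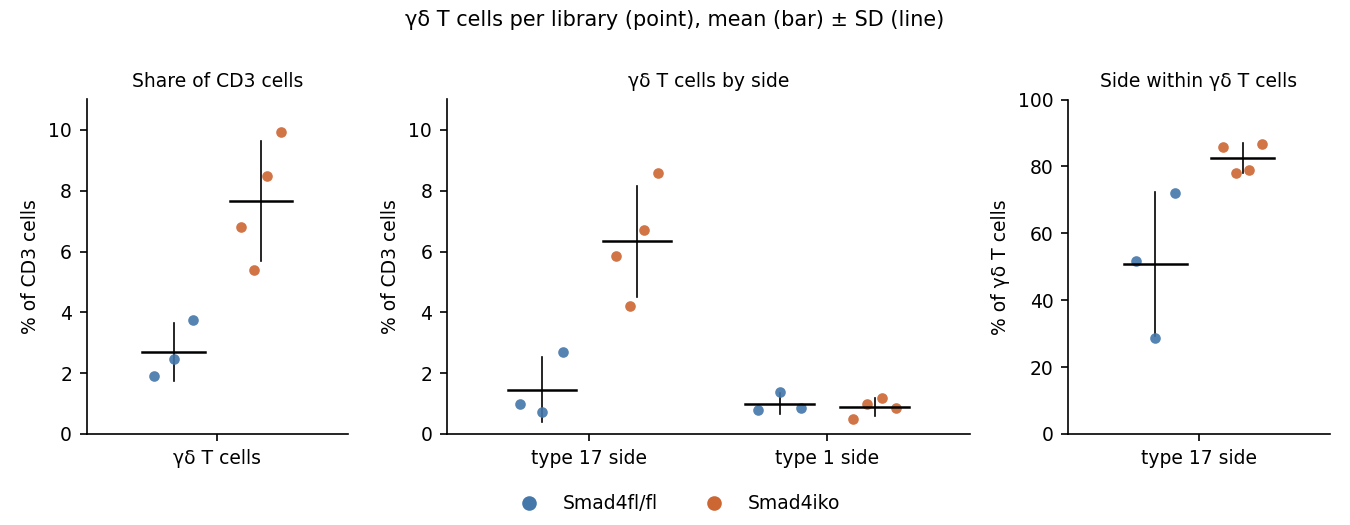
Share of gamma-delta T cells among CD3 barcodes (left), the same by side (middle) and the share of members on the type 17 side (right), all in percent, for each library (points) with mean (bar) and SD (line). The 4 Smad4iko libraries lie above the 3 Smad4fl/fl libraries in the left and right panels and for the type 17 side, and among them for the type 1 side.

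The genotypes were then compared within the members, on UMIs summed per library. Of 6860 genes outside the rule, 398 were called (5.8%), 174 higher in Smad4iko (2.54%) and 224 lower (3.27%), by edgeR's quasi-likelihood test. Leaving out a library changed the count most for Smad4fl/fl 2 (57 genes) and Smad4fl/fl 1 (91), and Smad4iko 1 and 2 alone gave 82. The same test gave 0 of 10307 genes in CD4 T cells and 0 of 10237 in CD8 T cells, where 674 (6.54%) and 413 (4.03%) had an unadjusted p under 0.05 against 1547 (22.6%) in the members. The type 17 share moved with genotype, so the fit was repeated on the type 17 side alone, an alternative added after the data were seen, where 55 of 6337 genes were called (0.868%), 29 higher (0.458%) and 26 lower (0.41%). Of those 55 genes, 51 were among the 398. For the genes named below it is said where a call was lost on that side or with Smad4iko 1 and 2 alone. Of the genes called and named below, Birc5, Cd27, Cks1b, Fasl, Gramd3, H2ac8, Hmgb2, Ifngr1, Klre1, Mki67, Pclaf, Rflnb, Rrm2, Tbc1d4, Top2a, Tubb5 and Ube2c kept the call without any 1 library, and each of the others lost it without Smad4fl/fl 2.

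Smad4 itself was lower in the members of every Smad4iko library. It stood at 129.5, 113 and 97.6 CPM in Smad4fl/fl 1 to 3 and 40.7, 32.6, 34.3 and 54.2 CPM in Smad4iko 1 to 4, without overlap. The log2 difference was -1.37 ± 0.23 (SE; edgeR, adjusted p = 0.0126), and -1.43 on the type 17 side (adjusted p = 0.0387). The call was lost without Smad4fl/fl 2 and with at most 40 members per library, the adjusted p by edgeR over all alternatives reaching 0.0638. Smad4 RNA was lower but present, and the labels do not say which exons the floxed alleles flank, so 3' UMIs cannot tell a deleted transcript from an intact one. In CD4 T cells the means were 134 ± 6.61 and 79.1 ± 17 CPM, and in CD8 T cells 113 ± 4.77 and 70.9 ± 15.5 CPM, with adjusted p of 0.725 and 0.891 by edgeR.

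Smad7 and Pmepa1, genes of the SMAD pathway that TGF-β is known to induce, were also lower. Of 17 tested genes of the list, 4 were called, all lower (against 3.27% of all genes called lower), and the median log2 difference was -0.39 against -0.00 over all genes. Smad7, the inhibitory SMAD that SMAD signalling induces, stood at 687, 749 and 372 CPM in Smad4fl/fl 1 to 3 and 242, 193, 280.4 and 261 CPM in Smad4iko 1 to 4. Its log2 difference was -1.23 ± 0.25 (edgeR, adjusted p = 0.0214), with no overlap, and Smad4iko members sat in a narrow range below the lowest control. Pmepa1, a TGF-β-induced feedback inhibitor, stood at 236, 531 and 161 CPM in Smad4fl/fl 1 to 3 and 53.3, 116, 35.7 and 20.9 CPM in Smad4iko 1 to 4, a log2 difference of -2.50 ± 0.54 (adjusted p = 0.0258). Smad4iko 2 was the highest of its group and still below all controls.

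Both calls were lost on the type 17 side alone and with Smad4iko 1 and 2 alone, where Smad4 was the one gene of the list still called. On the type 17 side the differences were -0.98 and -2.36 with adjusted p of 0.0791 and 0.127, and with Smad4iko 1 and 2 alone -1.41 and -1.87 with 0.0841 and 0.151. Pmepa1 was also low in the alpha-beta T cells of Smad4iko 3 and 4 (72.1 and 53.6 CPM in CD4 T cells) and not in those of Smad4iko 1 and 2 (198 and 240 CPM, against 161 to 175 CPM in controls). Itgav, the integrin αV chain that takes part in TGF-β activation, was the other gene called, at 45, 56.7 and 63.2 against 22.9, 23.1, 29.4 and 33.9 CPM (-0.97 ± 0.26, edgeR, adjusted p = 0.0492). The call of Itgav was lost in 18 of 22 alternatives, among them DESeq2 and each of those without 1 library, with adjusted p of 0.0378 to 0.323. The receptors Tgfbr1 (-0.23 ± 0.39) and Tgfbr2 (-0.51 ± 0.17), the ligand Tgfb1 (-0.09 ± 0.19), the SMADs Smad2 (0.48 ± 0.36) and Smad3 (-0.39 ± 0.29) and the co-repressors Ski (-0.08 ± 0.19) and Skil (-0.63 ± 0.23) did not pass the test, given as log2 differences with SE.

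**Figure D3:**
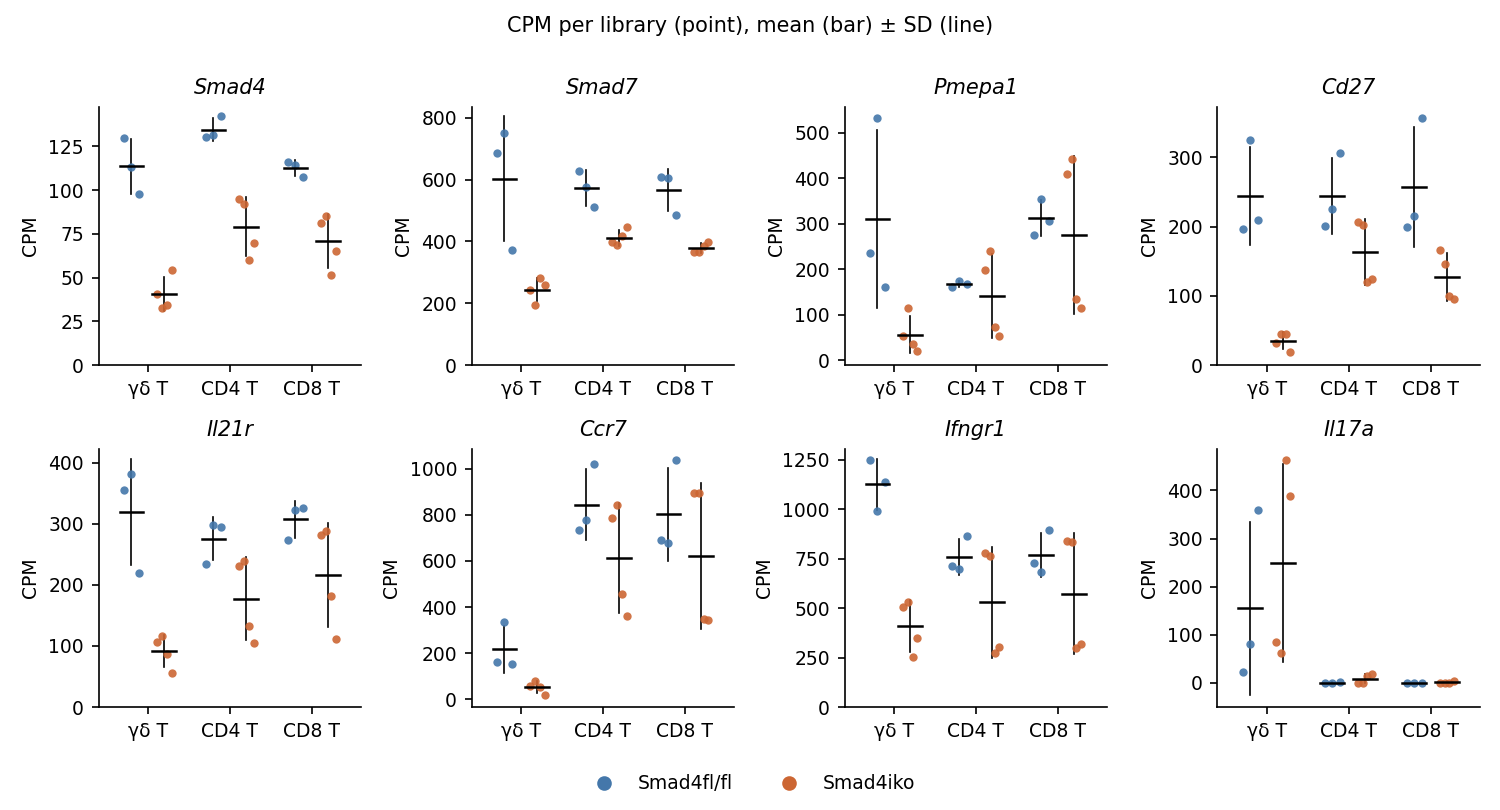
CPM of 8 genes in gamma-delta T, CD4 T and CD8 T cells of each library (points), with the mean (bar) and SD (line) of the 3 Smad4fl/fl and 4 Smad4iko libraries. The Smad4 points of Smad4iko lie below those of Smad4fl/fl in all 3 classes, Il21r and Cd27 of the members separate the genotypes, and Il17a overlaps between them.

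Of the 12 higher genes ranked first by size, 11 were genes of DNA synthesis, chromatin assembly and mitosis. Of 17 tested genes of the cell cycle list, 16 had a positive difference and 11 were called, all higher (64.7% of the list, against 2.54% of all genes called higher), with a median log2 difference of 2.46. The 11 were Birc5, Ccnb2, Cdk1, Hmgb2, Mki67, Rrm2, Stmn1, Top2a, Tubb5, Tyms and Ube2c. Several genes of DNA synthesis and mitosis had few or no UMIs in Smad4fl/fl members. The S-phase factor Pclaf, a partner of PCNA, stood at 0, 0 and 1.44 CPM in Smad4fl/fl 1 to 3 and 222, 288, 172 and 75.2 CPM in Smad4iko 1 to 4, which is 1 UMI in all against 880, a ratio of 207 with an exact 95% interval of 37.1 to 8194. The fitted log2 difference of such a gene depends on the prior count (7.67 ± 0.84, edgeR, adjusted p = 0.00324). The interval of this ratio, and of those below, takes UMIs pooled over the libraries of a genotype. It covers counting error only and not the spread between mice or between cells.

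Top2a, the topoisomerase of dividing cells, stood at 0, 5.97 and 2.87 CPM in Smad4fl/fl 1 to 3 and 190.1, 218, 96.7 and 80.1 CPM in Smad4iko 1 to 4, with a log2 difference of 5.45 ± 0.64 (edgeR, adjusted p = 0.00324). Mki67, the proliferation antigen Ki-67, stood at 5.63, 0 and 4.31 CPM in Smad4fl/fl 1 to 3 and 115, 85.7, 59.6 and 51.1 CPM in Smad4iko 1 to 4 (4.57 ± 0.57, adjusted p = 0.00436). For both genes every Smad4iko library lay far above the highest control. Rrm2, a subunit of ribonucleotide reductase, had 2 UMIs against 382 (ratio 45, 12.4 to 373), Birc5, which encodes survivin, 2 against 321 (37.8, 10.4 to 313) and Tyms, thymidylate synthase, 2 against 152 (17.9, 4.87 to 149). Ccnb2, a mitotic cyclin, had no UMI in the 175 Smad4fl/fl members and 159 in Smad4iko, at least 12.5-fold higher when 3 counts are set as the floor over the group.

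Genes that resting T cells also use moved less. Hmgb2, a chromatin protein, stood at 760.1, 677 and 633 CPM in Smad4fl/fl 1 to 3 and 1818, 1854, 1633 and 1190.4 CPM in Smad4iko 1 to 4 (1.30 ± 0.18, edgeR, adjusted p = 0.00700). Tubb5, a tubulin, had 128 ± 18.5 CPM against 361 ± 96.7 CPM (1.52 ± 0.24, adjusted p = 0.00840). Stmn1, the microtubule regulator stathmin, stood at 33.8, 62.7 and 28.7 CPM in Smad4fl/fl 1 to 3 and 259, 390.4, 159 and 73.9 CPM in Smad4iko 1 to 4. Outside the list the ranking named Cks1b, a subunit of cyclin-dependent kinases (3.78 ± 0.42, adjusted p = 0.00324), and the replication-dependent histone genes H2ac8 (3.51 ± 0.54), H1f5 (4.95 ± 1.13) and Hist1h2ap (2.97 ± 0.77). Histone genes of this family are near-identical, so their single values are uncertain. The groups did not overlap for any gene of this paragraph, in a fit where 9.33% of all genes were higher in Smad4iko without overlap. For the genes named by the ranking this was a condition of being named.

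Cell cycle RNA was found in a minority of members. An Mki67 or Top2a UMI was present in 1 of 27, 2 of 59 and 5 of 89 members in Smad4fl/fl and in 36 of 141, 16 of 82, 23 of 195 and 40 of 240 in Smad4iko. In those Smad4iko members the cell cycle list summed to 7256, 8271, 9821 and 5407 CPM, and in the rest of the members to 1399, 1288, 1320 and 1222 CPM. The 8 Smad4fl/fl members with such a UMI had 971, 2192 and 1412 CPM, against 1321, 1303 and 1185 CPM in the rest of their libraries. The Smad4iko members with such a UMI were deeper, at medians of 10366, 18610, 9241 and 6910 UMIs against 5934 to 7107 in the rest.

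At equal depth the groups did not overlap either. Members thinned to 1000 UMIs held 1.14 ± 0.0793 cell cycle UMIs each in Smad4fl/fl and 2.18 ± 0.538 in Smad4iko. With a limit of 5 such UMIs, chosen after the data were seen, 1 of 27, 0 of 59 and 0 of 89 members passed in Smad4fl/fl, where 0 allows a share of up to 5.08% and 3.37%. In Smad4iko 20 of 141 (14.2%), 8 of 82 (9.76%), 11 of 195 (5.64%) and 14 of 240 (5.83%) passed. Macrophage markers in the members with an Mki67 or Top2a UMI summed to 739, 2117, 208 and 1042 CPM and in the rest to 997, 50, 1757 and 936 CPM, so they were higher in 2 of the 4 libraries and lower in 2.

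Other lymphocytes had such UMIs in both genotypes. In CD4 T cells 4.72, 3.98 and 5.86% had an Mki67 or Top2a UMI in Smad4fl/fl and 7.72, 3.88, 6.76 and 10.5% in Smad4iko, in CD8 T cells 2.70 to 6.41% and 2.55 to 5.64%, and in B cells 2.96 to 6.43% and 2.34 to 6.70%. On the type 17 side, 8 of 16 tested cell cycle genes were called, all higher (against 0.458% of all genes called higher), with a median of 3.30. There an Mki67 UMI was present in 3 of 103 Smad4fl/fl cells (2.9%) and 79 of 577 Smad4iko cells (13.7%). Ccnb2, Cdk1 and Tyms missed the threshold there, with adjusted p of 0.0647, 0.0666 and 0.0562 by edgeR, as did the histone genes H1f5 and Hist1h2ap (0.0888 and 0.0651). With Smad4iko 1 and 2 alone the same 11 genes of the list were called. The genes Birc5, Cks1b, Mki67, Pclaf, Rrm2, Top2a, Tubb5 and Ube2c passed in every alternative in which they were tested.

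**Figure D4:**
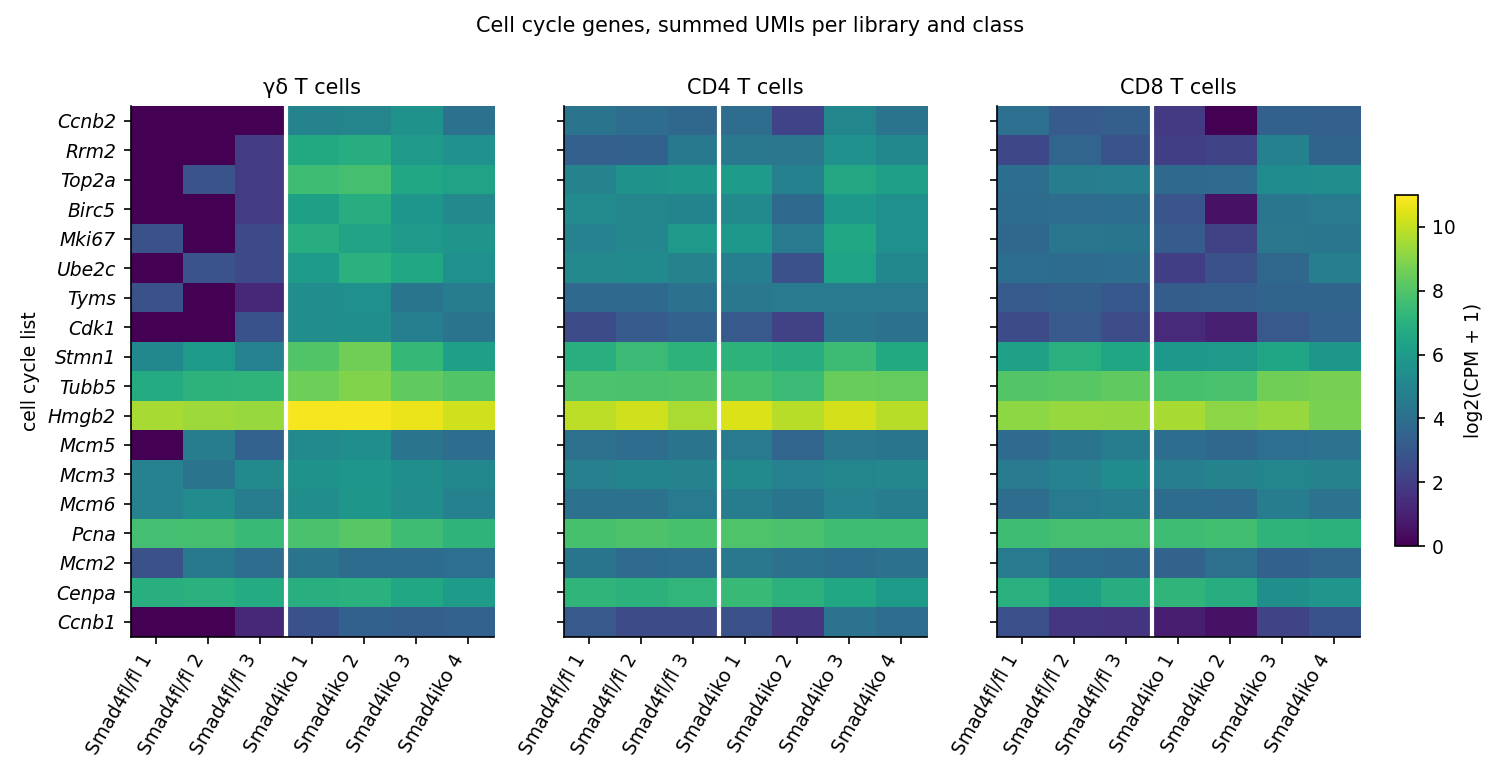
Heat map of the 18 cell cycle genes in gamma-delta T, CD4 T and CD8 T cells of the 7 libraries, coloured by log2(CPM + 1), with a white line between genotypes. In the left panel Ccnb2, Rrm2, Top2a, Birc5 and Mki67 are at or near 0 in Smad4fl/fl 1 to 3 and clearly present in Smad4iko 1 to 4, while in CD4 and CD8 T cells both genotypes show them.

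Some genes of the type 1 programme were lower. Of 16 tested genes of the list 14 had a negative difference and 6 were called, all lower (37.5%, against 3.27% of all genes called lower), with a median of -1.74. Cd27, the costimulatory receptor that marks the interferon-γ subset, stood at 197, 325 and 209.6 CPM in Smad4fl/fl 1 to 3 and 31.8, 44.9, 45.6 and 19.7 CPM in Smad4iko 1 to 4. Its log2 difference was -2.76 ± 0.31 (edgeR, adjusted p = 0.00324), and the highest Smad4iko library lay far below the lowest control. Fasl, the Fas ligand of killer cells, stood at 39.4, 47.7 and 44.5 CPM in Smad4fl/fl 1 to 3 and 10.4, 6.80, 10.5 and 5.55 CPM in Smad4iko 1 to 4 (-2.32 ± 0.33, adjusted p = 0.00711). Klre1, a killer cell lectin-like receptor, stood at 39.4, 20.9 and 35.9 against 5.92, 4.08, 4.21 and 4.31 CPM, Prf1, perforin, at 39.4, 20.9 and 21.5 against 5.92, 5.44, 5.61 and 6.78 CPM and Klrd1, which encodes CD94, at 90.1, 373 and 135 against 25.2, 42.2, 56.8 and 64.7 CPM, each lower without overlap, where 13.6% of all genes were. Xcl1, a chemokine, was called on an uneven base, with no UMI in Smad4fl/fl 1 and 155 CPM in Smad4fl/fl 2 (-3.40 ± 0.74, adjusted p = 0.0264). Cd27, Fasl and Klre1 were still called lower with Smad4iko 1 and 2 alone, while Prf1, Klrd1 and Xcl1 missed the threshold (edgeR, adjusted p = 0.120, 0.0833 and 0.0671). The granule protease gene Gzmb, at 152, 65.6 and 90.4 against 348, 332, 65.9 and 51.1 CPM, overlapped and was not called (1.07 ± 0.65, adjusted p = 0.361), but with Smad4iko 1 and 2 alone it was called higher (1.86, 0.0200). The chemokine gene Ccl5, at 1898, 4260.5 and 1509.9 against 186, 1256, 667 and 628 CPM, missed the threshold (adjusted p = 0.0615).

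The type 1 list defines the type 1 side, so its lower genes and the smaller share of members on that side are not separate results. Of CD3 barcodes, type 1 side cells had means of 0.997 and 0.878%, with overlapping groups. Because the list defines the sides, its fit within the type 17 side, where 0 of 7 tested genes were called, is a description only. Cd27, Klre1 and Klrd1 lie on chromosome 6 within 25 Mb of Rosa26, the site of the Cre insertion, where 13 of 131 tested genes were called (9.92%, against 5.8% of all genes). A difference set by the strain of the inserted segment cannot be told apart from one of the deletion for those 3 genes. Cd27 was not called in CD4 T cells (-0.51) or CD8 T cells (-0.90), where edgeR called 0 of 10307 and 0 of 10237 genes. The missing call therefore does not set the members apart.

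Some genes of lymphocyte homing and egress were lower as well. Ccr7 stood at 163, 334 and 151 CPM in Smad4fl/fl 1 to 3 and 56.2, 80.3, 53.3 and 16.6 CPM in Smad4iko 1 to 4 (-2.07 ± 0.45, edgeR, adjusted p = 0.0261). Ccr9, the gut homing receptor, stood at 90.1, 62.7 and 57.4 against 11.8, 24.5, 20.3 and 2.46 CPM (-2.20 ± 0.51, adjusted p = 0.0328). For both genes the groups did not overlap. In the residency and egress list 4 of 15 tested genes were lower (against 3.27% of all genes), Klf3 (-0.89 ± 0.20) and Rgs2 (-0.59 ± 0.15) among them, and 0 were higher, Itgae being among those not called (0.90 ± 0.27, adjusted p = 0.0768). On the type 17 side Ccr7 kept its direction at -1.71 and missed the threshold (edgeR, adjusted p = 0.365), as did Klf3 and Rgs2 (0.159 and 0.231), and Ccr9 was too low there to be tested. With Smad4iko 1 and 2 alone Ccr7, Ccr9, Klf3 and Rgs2 missed it, at adjusted p of 0.0987, 0.0562, 0.115 and 0.131. Over all alternatives the call of Rgs2 was lost in 17 of 23 and that of Klf3 in 10 of 22.

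Of the cytokine receptor list 15 of 21 tested genes had a negative difference and 5 were called, all lower (against 3.27% of all genes). Ifngr1, the ligand-binding chain of the interferon-γ receptor, stood at 1250.0, 991 and 1138 CPM in Smad4fl/fl 1 to 3 and 508, 531, 252 and 348 CPM in Smad4iko 1 to 4, a log2 difference of -1.39 ± 0.22 (edgeR, adjusted p = 0.00931). The groups were far apart, and Smad4iko 3 and 4 were lowest, as they were in CD4 T cells. With Smad4iko 1 and 2 alone, whose CD4 and CD8 T cells were level with the controls, the difference was -1.06 (adjusted p = 0.0395). On the type 17 side Ifngr1 was at -1.42 (edgeR, adjusted p = 0.0169) and Ifngr2, the second chain, at -1.05 (0.0324). These were 2 calls of 18 receptors tested there, both lower, against 0.41% of all genes called lower.

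Il21r, the IL-21 receptor, stood at 355, 382 and 219.6 CPM in Smad4fl/fl 1 to 3 and 106, 117, 86.9 and 56.1 CPM in Smad4iko 1 to 4 (-1.74 ± 0.28, edgeR, adjusted p = 0.00913). Il4ra, the IL-4 receptor α chain, stood at 107, 119 and 135 CPM in Smad4fl/fl 1 to 3 and 62.1, 51.7, 47.7 and 50.5 CPM in Smad4iko 1 to 4 (-1.14 ± 0.19, adjusted p = 0.0100). Il12rb2, the inducible IL-12 receptor chain of type 1 cells, stood at 33.8, 59.7 and 15.8 against 3.70, 5.44, 1.40 and 0.616 CPM (-3.71 ± 0.67, adjusted p = 0.0139), and Il6st, the shared chain gp130, was -1.86 ± 0.45 (adjusted p = 0.0383). Each was lower in Smad4iko without overlap. With Smad4iko 1 and 2 alone Ifngr1 was the one receptor of the list called, and Il21r, Il4ra, Il12rb2 and Il6st missed the threshold (edgeR, adjusted p = 0.0591, 0.0841, 0.0982 and 0.217). On the type 17 side Il21r and Il4ra missed it (-0.85 and -0.95, adjusted p = 0.231 and 0.0666), and Il12rb2 and Il6st were too low to be tested. Il23r (0.13 ± 0.41), Il1r1 (0.12 ± 0.29), Il18r1 (-0.01 ± 0.26) and Il7r (-0.19 ± 0.20), the receptors that sustain IL-17-producing cells, were not called.

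The ranking of lower genes also named Bcl2l11, which encodes the death-promoting protein BIM, at 422, 507 and 251 CPM in Smad4fl/fl 1 to 3 and 102, 147, 61 and 50.5 CPM in Smad4iko 1 to 4 (-2.09 ± 0.36, edgeR, adjusted p = 0.0127; -1.38 and 0.0710 on the type 17 side). Dusp10, a phosphatase of stress kinases (-2.29 ± 0.34, adjusted p = 0.00765), Rras2, a RAS-family GTPase (-2.21 ± 0.34, 0.00782), Tbc1d4, a regulator of glucose transporter traffic (-2.17 ± 0.33, 0.00782), Prkca, protein kinase Cα (-2.05 ± 0.42, 0.0212), Rflnb (-2.56 ± 0.36, 0.00700) and Gramd3 (-2.30 ± 0.30, 0.00625) were the rest. The ranking took only genes whose values did not overlap between genotypes. Dusp10, Rras2, Tbc1d4, Prkca and Gramd3 missed the threshold on the type 17 side (edgeR, adjusted p = 0.0769, 0.249, 0.0621, 0.299 and 0.186), and Rflnb was too low to be tested. Bcl2l11, Rras2 and Prkca missed it with Smad4iko 1 and 2 alone (0.0676, 0.0652 and 0.112). Gramd3 was also a gene of the type 1 side, at 548 against 53.8 CPM.

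Outside the cell cycle, Ly6a was the gene named by the same ranking. Ly6a, which encodes the activation antigen Sca-1, stood at 39.4, 32.8 and 7.18 CPM in Smad4fl/fl 1 to 3 and 181, 99.3, 106 and 70.2 CPM in Smad4iko 1 to 4 (2.49 ± 0.51, edgeR, adjusted p = 0.0217) and was called on the type 17 side (3.05, 0.0250) and with Smad4iko 1 and 2 alone (2.78, 0.0496). Havcr2, the checkpoint receptor TIM-3, had 2 UMIs against 145, a ratio of 17.1 with an interval of 4.64 to 142 for counting error only. It stood at 0, 2.98 and 1.44 against 40.0, 44.9, 23.1 and 15.4 CPM. TIM-3 is also a gene of myeloid cells, whose markers rose in the members. Its adjusted p on the type 17 side was 0.0666 by edgeR. Within the checkpoint and activation list of 14 tested genes it was the 1 called higher, while Nr4a3, a receptor-induced nuclear receptor (-1.22 ± 0.30, adjusted p = 0.0393), and Cd28 (-1.34 ± 0.34, 0.0444) were lower. Both were lost on the type 17 side (0.145 and 0.468), and Cd28 also with Smad4iko 1 and 2 alone (0.109). In the immediate early list of 16 tested genes Jun (1.43 ± 0.25) was called higher and Btg2 (-0.79 ± 0.17) lower, and in the heat shock list of 13 Hspa1b (1.84 ± 0.46) was called higher, where 5.8% of all genes were called. All 3 missed the threshold on the type 17 side (edgeR, adjusted p = 0.0664, 0.0798 and 0.138), and Btg2 and Hspa1b with Smad4iko 1 and 2 alone (0.0841 and 0.101). The call of Hspa1b was lost in 12 of 22 alternatives.

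Of the type 17 list Ltb4r1 was the one gene called. The list defines the sides, so its fit within the type 17 side, where 0 of 24 genes were called, is a description only. Over all members 21 of 24 tested genes had a positive difference (median 0.35). Ltb4r1 stood at 95.7, 62.7 and 121 CPM in Smad4fl/fl 1 to 3 and 170.2, 182, 194 and 190.4 CPM in Smad4iko 1 to 4 (1.03 ± 0.21, edgeR, adjusted p = 0.0181). Its call was lost on the type 17 side and with Smad4iko 1 and 2 alone (edgeR, adjusted p = 0.131 for the latter). Il17a stood at 22.5, 80.6 and 360.3 CPM in Smad4fl/fl 1 to 3 and 85.1, 61.2, 463 and 389 CPM in Smad4iko 1 to 4. It was high in Smad4fl/fl 3 and in Smad4iko 3 and 4 and low in the other 4 libraries, so the genotypes overlapped (0.64 ± 0.77, adjusted p = 0.668), and with Smad4iko 1 and 2 alone the sign turned to -1.16.

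Genes of the T cell receptor did not pass the test: edgeR called 0 of 11 and DESeq2 1. By edgeR 6 had an unadjusted p under 0.05, against 22.6% of all genes. Trdv4 was at 113, 95.5 and 171 against 115, 263, 353 and 437 CPM (1.25 ± 0.40, edgeR, adjusted p = 0.0962). Trgv6 was at 11.3, 26.9 and 44.5 against 32.6, 63.9, 102 and 98.6 CPM (1.29 ± 0.47, edgeR, adjusted p = 0.130). By edgeR 0 of 9 interferon-stimulated genes, 0 of 14 genes of lipid and sugar metabolism and 0 of 16 genes next to Rosa26 were called, with medians of 0.09, 0.28 and -0.02. An unadjusted p under 0.05 was seen for 2, 4 and 2 of them, against 22.6% of all genes, and DESeq2 called 0, 1 and 0. The chemokine receptor list had 2 calls of 9, Ccr7 and Ccr9, and the cytokine list 1 of 9, Xcl1, against 5.8% of all genes called.

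Whether the genotype difference was other than that of alpha-beta T cells was tested on the log2 CPM differences between classes within each library, by limma. Against CD4 T cells 4 of 10333 genes were called (0.0387%), and 1504 had an unadjusted p under 0.05 (14.6%). Against CD8 T cells 0 of 9977 were called by limma, with 1520 at an unadjusted p under 0.05 (15.2%). Pclaf differed by 6.43 ± 0.62 (log2, limma, adjusted p = 0.0366), with CD4 T cells at means of 43.1 and 72.4 CPM where members were at 0.478 and 189 CPM. Aspm, a spindle protein, differed by 3.49 ± 0.32, with 0 and 9.48 CPM in members and 7.40 and 8.25 CPM in CD4 T cells. BC048403 rose from 0 to 4.93 CPM and Samd3 fell from 13 to 0.999 CPM in members, with 3.06 and 1.88 CPM and 0.935 and 1.00 CPM in CD4 T cells (3.29 and -2.96, limma, adjusted p = 0.0363 and 0.0366). These 4 calls were lost when Smad4iko 3 and 4 were left out, and whenever any 1 library other than Smad4fl/fl 3 was. The drop of Smad4 was not shown to differ from that in CD4 T cells (-0.69 ± 0.33, adjusted p = 0.381), nor did Smad7 (-0.76 ± 0.28, adjusted p = 0.303) past the threshold.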

How the data were processed

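For each of 7 libraries the authors deposited a matrix of counts, whole UMIs per gene and barcode without normalization, written by Cell Ranger 6.1.1 per the file headers. The submitters' processing notes name fastp, UMI-tools and mm10, with no role given. Coordinates came from GENCODE M21, which held 31107 of the 31253 gene IDs. Tcrg-C1 is Trgc1 in the features. The members, gene lists and tests were chosen with earlier results of these data known.

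UMIs were summed per library and class. Genes of the rule that passed the count filter stayed in the fits and the adjustment, and were left out of the calls counted. Genotypes and classes were compared with edgeR 4.0.16 (R 4.3.3; filterByExpr, TMM, quasi-likelihood F test, library as a term between classes), and differences of the genotype effect with limma 3.58.1 on log2 CPM with a prior count of 2. The 398 calls include none of the 14 genes of the rule. Shares used the exact permutation test over all 35 assignments of the 7 libraries. The edgeR step was tested on simulated counts. DESeq2 1.42.0 was an alternative. Scrublet in scanpy 1.11.5 (expected rate 6%) marked 23 members as doublets, which were kept in and left out as an alternative. Libraries of a group differed by a chi-square of 73.3 to 493 per gene, more than copies of 1 library would. For the genotype effect the text names up to 12 called genes each way by size, without overlap, at an average of at least 5 log2 CPM, and the 4 smallest p of each list, and against CD4 and CD8 T cells up to 15 genes each way called in both, always with the genes of the rule, Il17a and Smad4. Predicted, sex-linked and immunoglobulin genes were not ranked. The lists cover type 17, type 1, T cell receptor, SMAD pathway, residency and egress, cytokine, cytokine receptor, chemokine receptor, checkpoint, cell cycle, interferon-stimulated, immediate early, heat shock, metabolism and Rosa26-flanking genes. Genes named outside the rule were chosen after their values were seen. Some genes of the lists are not reported here.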

Additional observations from a re-analysis of the deposited data

Results flagged for a closer look

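A single library stood apart among the 4 Smad4iko libraries for 2 of 55 values examined by Dixon's ratio, where chance gives about 1 in 20. The Smad4fl/fl libraries were not examined in this way. Xcl1 was at 18.9 CPM in the members of Smad4iko 3 and at 3.70 to 4.31 CPM in the other 3 Smad4iko libraries (ratio 0.960 against a critical value of 0.829). Klre1 was at 5.92 CPM in Smad4iko 1 and at 4.08 to 4.31 CPM in the other 3 (ratio 0.874), a gap of few UMIs.

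The genotype difference of the members differed from that of CD4 T cells for 4 genes, by limma on within-library differences. The difference of differences was 6.43 for Pclaf, 3.49 for Aspm, 3.29 for BC048403 and -2.96 for Samd3 on the log2 scale, with adjusted p of 0.0363 to 0.0366. Aspm had 0 UMIs in Smad4fl/fl members and 52 in Smad4iko, at least 4.08-fold higher over a floor of 3 counts in the group, and BC048403 0 and 25, at least 1.96-fold. The log2 values of these genes depend on the prior count.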

How the results depend on the processing

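The share on the type 17 side differed by 31.5 percentage points, by 22.4 with no Trac and at most 3 Trbc1 and Trbc2 UMIs per member and by 24 when barcodes were thinned before the rule, and by 20.5 to 42.0 without 1 library, where p was 0.0667 to 0.1. The 398 genotype calls became 82 with Smad4iko 1 and 2 only, 1 under that limit on alpha-beta receptor UMIs (552 genes tested), 113 with at most 40 members per library, 207 with a covariate for Smad4iko 3 and 4, 618 without a count filter and 55 on the type 17 side. Without 1 library they were 57 to 343: 91 and 57 without Smad4fl/fl 1 and 2, 258, 160 and 213 without Smad4iko 1, 3 and 4. The calls against CD4 and CD8 T cells became 1626 and 1648 with Smad4iko 1 and 2 only. The 4 genes that differed from CD4 T cells became 0 with Smad4iko 1 and 2 only, with a covariate for Smad4iko 3 and 4 or for sex, 2 with a prior count of 0.5, and 0 to 96 without 1 library (96 without Smad4fl/fl 3). Against CD8 T cells 0 became 30 with the covariate for Smad4iko 3 and 4, and 0 to 90 without 1 library (90 without Smad4fl/fl 3). Il17a turned to -1.16 with Smad4iko 1 and 2 only and to -1.21 with the covariate, and Hmgb2 to -0.045 under the limit on alpha-beta receptor UMIs. Fewer libraries or genes entered several of these fits; the cause was otherwise not tested. Over the named genes, 907 genotype values kept their direction and side of the threshold, 214 kept the direction only and 3 reversed.

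The labels do not say whether replicate numbers pair the mice. Same-numbered libraries correlated at 0.143, -0.0913 and 0.106, and libraries of different numbers at -0.183 to 0.122, which does not settle it. With the replicate block there were 253 genotype calls and 0 genes that differed from CD4 T cells, and the 3 shares differed by 1.10, 4.20 and 30.1 points (exact p = 0.25, the smallest possible). Smad4fl/fl 1, with 27 members and 177600 UMIs, sets the precision for low genes.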

Other observations

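Pdcd1, Ccr2, Cd44, Klrk1 and Klrc1 were higher in the members than in the CD4 T cells of each library. These genes, Icos and those of the next paragraph were chosen after their values were seen. Pdcd1, which encodes PD-1, ranged from 173 to 411 CPM (median 266) in members and from 7.92 to 24 CPM in CD4 T cells (4.16 ± 0.20, log2; edgeR, adjusted p = 1.28e-08). Icos, the costimulatory receptor, stood at 203 to 558 CPM (median 484) against 262 to 304 CPM (0.60 ± 0.13, adjusted p = 0.00382), higher in 6 of 7 libraries, the lowest library of members lying below all CD4 T cell values. Ccr2 ranged from 119 to 547 CPM (median 484) against 27.4 to 54.4 CPM. Cd44, the adhesion molecule of antigen-experienced T cells, stood at 146 to 440.2 CPM (median 399) against 80.0 to 169.7 CPM. The natural killer receptor genes Klrk1, which encodes NKG2D, and Klrc1, which encodes NKG2A, had means of 352 and 62.3 CPM in members, 6.41 and 1.59 CPM in CD4 and 16.5 and 11.5 CPM in CD8 T cells.

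Genes of TGF-β production and binding moved both ways in the same comparison. Furin, the protease that processes the TGF-β precursor, stood at 77.6 to 271 CPM (median 221) in members against 24.8 to 46.8 CPM in CD4 T cells (2.41 ± 0.17, edgeR, adjusted p = 3.01e-07), and Tgfb1 at 99.8 to 154 CPM (median 129) against 66 to 78.3 CPM (0.71 ± 0.11, 1.80e-04). The co-receptor Tgfbr3 was lower, at a mean of 19.6 against 56.5 CPM (-2.11 ± 0.31, 1.64e-04).

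Hspb1, a small heat shock gene, was at 828 CPM in the members of Smad4fl/fl 1 and at 1.40 to 21.8 CPM in the other 6 libraries. Gzmb was at 348 and 332 CPM in Smad4iko 1 and 2 and at 65.9 and 51.1 CPM in Smad4iko 3 and 4.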
